A study of Mus musculus with 16 samples.

Results

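The 10 genes described here are Trp53, which encodes the transcription factor p53, and 9 genes known as its transcriptional targets: Cdkn1a, Ccng1, Plk2, Zmat3, Tnfrsf10b, Mdm2, Trp53inp1, Sesn2 and Bbc3. They were taken by gene symbol, and all 10 were listed in both deposited tables, among 20790 genes at day 2, 20658 at day 4 and 19964 in both. RNA was measured in epithelial organoids grown from the jejunum of C57BL/6 mice. All 16 libraries carried the same alleles, a floxed pair of Hnf4a and Villin-CreERT2, a recombinase made in intestinal epithelium and active only with tamoxifen derivatives. The 4OHT groups received 0.5 µM 4-hydroxytamoxifen for 24 h, the DMSO groups the solvent, and 4 libraries of each treatment were labelled day 2 and 4 day 4. The labels' protocol describes a single harvest, on day 4 after the last passage, so what day 2 was counted from is known only from the sample labels, and each comparison over time rests on them. No group received 4OHT without the floxed alleles, so the drug, the active recombinase and the loss of Hnf4a cannot be told apart. Whether replicates were separate cultures or mice is not stated. The p-values therefore refer to the spread among libraries, part of which may be technical.

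p53 is held at low protein level by Mdm2, an enzyme that marks it for degradation and whose own gene p53 switches on. When DNA damage, nucleotide shortage or other stress frees p53, it binds paired decamer elements near its targets and raises genes that stop the cell cycle, repair DNA or trigger apoptosis. In intestinal crypts this response is known for removing or arresting damaged progenitors, with Cdkn1a and Bbc3 among its best studied outputs. p53 activity is controlled mostly at the protein level, which these RNA data do not measure.

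Sequences near the start site are shown for the 4 genes whose window held a p53 decamer, the kind of element through which p53 is known to act. RefSeq promoter windows (GRCm38.p6, 250 bases before to 50 after each annotated start) were found for 7 of the 10 genes, in 10 windows: Trp53, Cdkn1a, Ccng1, Plk2, Mdm2, Sesn2 and Bbc3. Capitals mark bases in an exact p53 decamer or in 2 adjoining decamers with at most 2 mismatches; 20 bases are given on each side, 5′ to 3′ along the gene's strand.
Cdkn1a, chr17:29090886-29090967, plus strand, capitals within positions -73 to -32 from the start site: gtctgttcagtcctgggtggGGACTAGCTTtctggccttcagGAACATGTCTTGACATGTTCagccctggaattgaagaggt
Ccng1, chr11:40755442-40755501, minus strand, capitals at -195 to -176: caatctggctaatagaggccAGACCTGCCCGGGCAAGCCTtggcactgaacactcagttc
Mdm2, chr10:117710915-117710964, minus strand, capitals at -186 to -177: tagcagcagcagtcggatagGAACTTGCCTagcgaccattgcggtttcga
Trp53, chr11:69580264-69580313, plus strand, capitals at -75 to -66: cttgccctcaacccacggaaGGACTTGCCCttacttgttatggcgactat
The decamer reads the same on both strands in its consensus form. It was found for 4 of 7 members, against 9.55% of 27025 genes with a window. Paired decamers, with at most 2 mismatches and 0 to 13 bases between them, were found for 2 of 7, Cdkn1a and Ccng1, against 4.71% of genes. Among the other p53 targets listed for comparison, 10 of 36 genes with a window held the decamer and 6 the paired form. The letters CAAAGTCCA, a core bound by HNF4 receptors, were searched on both strands. They were in 0 of the 10 member windows and in 0.475% of all 32851 windows. A match describes the letters only, and these windows leave out introns and distal elements.

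Library totals ran from 63.8 M to 93.3 M counts. Hnf4a, the floxed gene, fell from 1018 ± 30.7 to 508.5 ± 22.2 CPM (SD, n = 4; CPM is the TMM-scaled share of library counts) at day 2, and in day 4 libraries the level went from 970.1 ± 6.95 to 471 ± 16.1 CPM. The 5 epithelial markers summed to 8536 to 9297 CPM in DMSO and 9873 to 10510 CPM in 4OHT at day 2, and to 5381 to 5872 and 6434 to 7311 CPM at day 4. Of these, edgeR called only Krt8 higher, from a mean of 5781 to 7183 CPM at day 2 and 2778 to 3880 CPM at day 4. Epcam was called lower at day 2 (1087 to 877 CPM), and Cdh1, Vil1 and Cdx2 were not called on either day. Markers of fibroblasts and smooth muscle (2 of 6 listed in both tables), immune cells (2 of 4) and endothelium (1 of 3) summed to at most 0.368, 0.119 and 0.753 CPM; Col1a2, Col3a1, Dcn, Acta2, Adgre1, Cdh5 and Kdr were among those not listed. Within the epithelium, the sum of 4 stem cell markers was lower in 4OHT (547 to 592 against 987 to 1086 CPM at day 2, 1788 to 2131 against 2653 to 3062 at day 4). The sum of 5 goblet cell markers was higher (6267 to 8302 against 4056 to 4695, then 5876 to 8053 against 3058 to 4289 CPM). The sum of 4 Paneth cell markers was lower in 4OHT (1279 to 1410 against 1632 to 2081, then 1951 to 2099 against 2189 to 2726 CPM). At day 4 Lyz1 and Defa24 were lower by edgeR (means 540 to 277 and 703 to 494 CPM). Itln1 (1068 to 1035 CPM) and Mmp7 (182 to 210 CPM) were not called there. The sum of 6 enterocyte markers was lower at day 2 (2375 to 3447 against 3465 to 4849 CPM) and overlapped at day 4 (5425 to 7617 against 5974 to 6726 CPM). The part of these shifts in the results below was not tested, and in bulk RNA fewer cells of a type and less RNA per cell cannot be told apart.

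After 4OHT most of the targets were higher and Trp53 itself was lower. At day 2, 8 of the 10 genes rose and Trp53 fell, while 16.9% of 15897 tested genes rose and 14.3% fell. At day 4, all 9 targets rose and Trp53 fell, while 13.7% of 16040 genes rose and 11.1% fell. No 4OHT library overlapped a DMSO library of its day for the 8 called targets and Trp53 at day 2, or for 8 targets and Trp53 at day 4; over all genes 16.6% lay wholly above and 15.8% wholly below at day 2, and 14.6% and 13.5% at day 4. The largest rises were in Plk2, 1.64-fold at day 2 and 2.15-fold at day 4, and Zmat3, 1.49-fold and 1.97-fold. The median log2 change over the 10 genes was 0.44 at day 2 and 0.54 at day 4, beside 0.00 (-0.0027) and -0.01 (-0.0070) over all genes tested. The test was edgeR's quasi-likelihood test with p-values adjusted by Benjamini-Hochberg over all genes. The genes were chosen with earlier results in view, so these shares describe them and do not test the pathway.

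**Figure D1:**
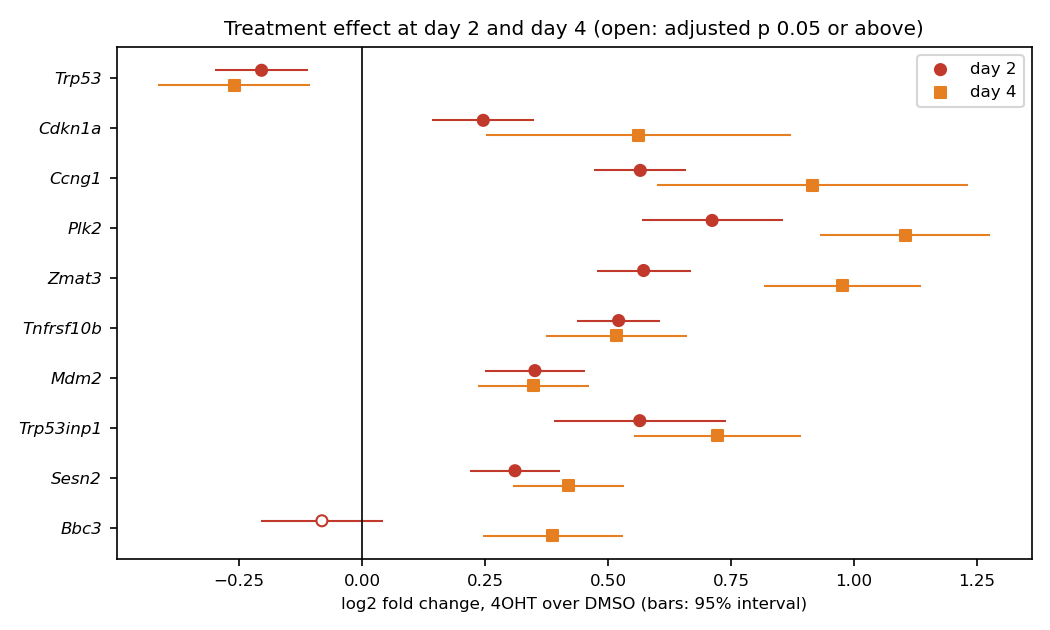
Log2 fold change of each gene, 4OHT over DMSO, at day 2 (circles) and day 4 (squares), with approximate 95% intervals from the standard errors. An open symbol did not pass. Trp53 lies to the left of 0 on both days, and the open symbol is Bbc3 at day 2.

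Trp53 (ENSMUSG00000059552, GRCm38 chromosome 11, 69580359 to 69591873, plus strand) was the member that went down. At day 2 its level in DMSO replicates 1 to 4 was 174, 170.0, 151 and 161 CPM, and in 4OHT 139.8, 137, 145 and 144 CPM. At day 4 DMSO gave 178, 174, 159.8 and 162 CPM, and 4OHT 157, 152, 127 and 127 CPM. Every 4OHT library was below every DMSO library of its day, by a small margin at both. The fall was log2 -0.20 ± 0.05 (SE; edgeR adjusted p = 0.00709) at day 2 and -0.26 ± 0.08 (edgeR adjusted p = 0.0360) at day 4. At day 4 the log2 differences between libraries of the same number were -0.18, -0.20, -0.33 and -0.36 for numbers 1 to 4. With the replicate number as a block the day 4 call was kept. Without the block it was lost when DMSO replicate 1, 2 or 3 or 4OHT replicate 3 or 4 was left out (edgeR adjusted p = 0.100, 0.0858, 0.0545, 0.0890 and 0.0730). Reads of the processed copy Trp53-ps, 21 and 27 counts over the 8 libraries of each table, were too few to move these values.

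Mdm2 (ENSMUSG00000020184, chromosome 10, 117688875 to 117710758, minus strand), the ligase that limits p53 protein, rose by about the same amount on both days. At day 2 the DMSO libraries averaged 70.1 ± 4.49 CPM and the 4OHT libraries 88.7 ± 3.40, and at day 4 they averaged 47.6 ± 2.10 and 60.5 ± 4.12 (SD, n = 4). The groups did not overlap: the highest DMSO library had 75.8 CPM at day 2 and 49.4 at day 4, and the lowest 4OHT library 85.2 and 57.1. The log2 change was 0.35 ± 0.05 at day 2 (edgeR adjusted p = 0.000364) and 0.35 ± 0.06 at day 4 (edgeR adjusted p = 0.00190). Mdm2 and Trp53 RNA thus moved in opposite directions on both days.

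**Figure D2:**
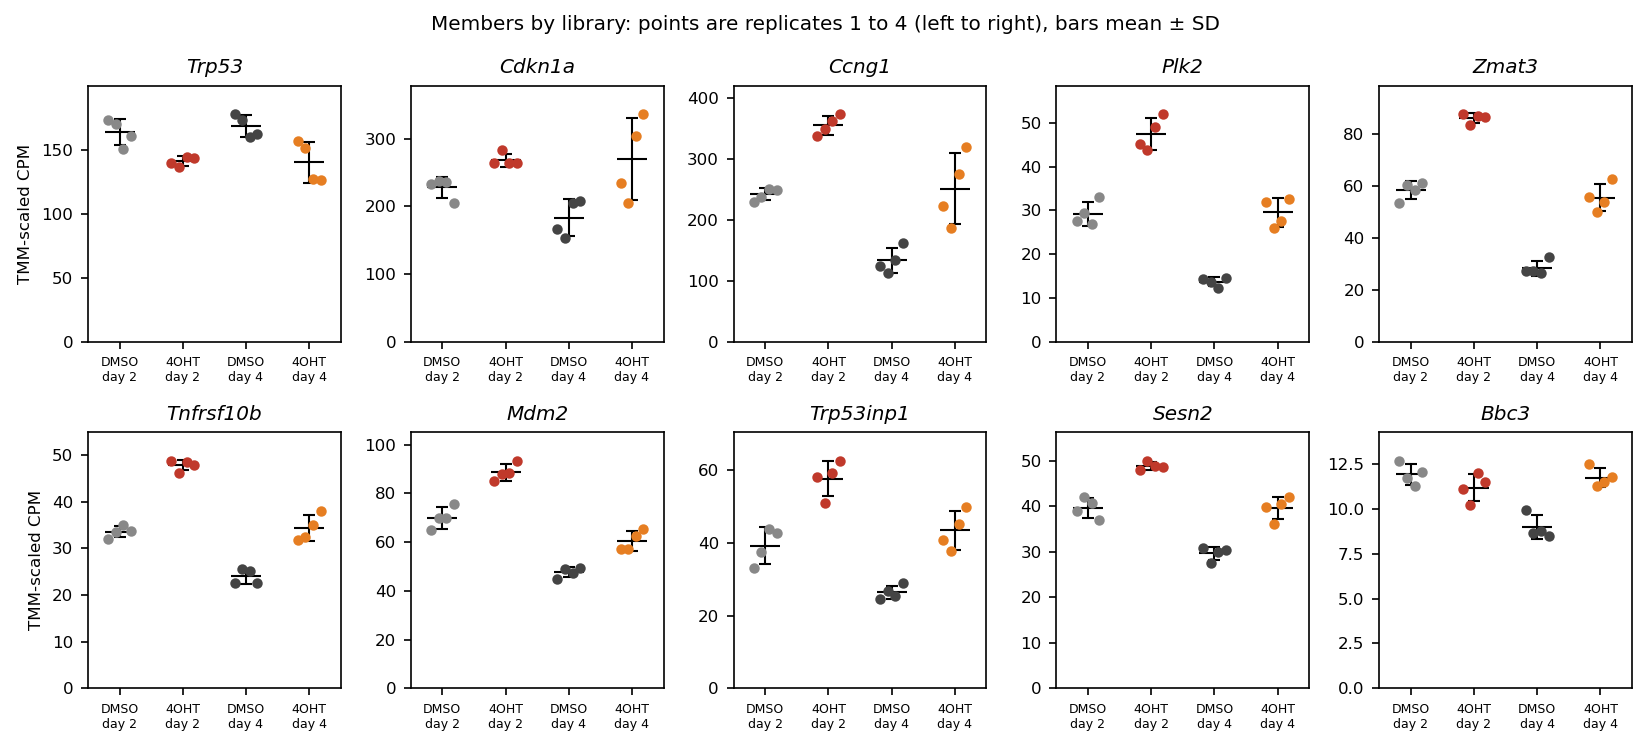
TMM-scaled CPM of each gene in the 16 libraries, 1 panel per gene, with replicates 1 to 4 from left to right and bars for mean ± SD (n = 4 per group). In most panels both day 4 groups sit below the day 2 group of the same treatment, and the widest spread is that of Ccng1 and Cdkn1a in 4OHT day 4 (188 to 321 and 205 to 336 CPM).

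Cdkn1a (ENSMUSG00000023067, chromosome 17, 29090976 to 29100727, plus strand) encodes p21, the inhibitor of cyclin-dependent kinases that carries the cell cycle arrest. At day 2 the DMSO libraries held 233, 237, 236 and 205 CPM and the 4OHT libraries 263, 282, 263 and 264 CPM. At day 4 the DMSO libraries held 167, 153, 206 and 208 CPM and the 4OHT libraries 234, 205, 304 and 336 CPM. The groups were separate at day 2 and overlapped at day 4, where 4OHT replicate 2 lay below DMSO replicates 3 and 4. The log2 change was 0.25 ± 0.05 at day 2 (edgeR adjusted p = 0.00428) and 0.56 ± 0.16 at day 4 (edgeR adjusted p = 0.0277). At day 4 each 4OHT library exceeded the DMSO library of the same number, by log2 0.49, 0.43, 0.56 and 0.69 for numbers 1 to 4. With the replicate number as a block the day 4 change was 0.55 ± 0.05. Without the block the call was lost when DMSO replicate 1 or 2 or 4OHT replicate 3 or 4 was left out (edgeR adjusted p = 0.0732, 0.0737, 0.0788 and 0.0629). When all 16 libraries were fitted together, the day 2 call was lost (edgeR adjusted p = 0.188). An annotated transcript on the opposite strand, AC167363.2, shares 7.7% of the exon bases of Cdkn1a; the strand setting of the counting is not given in the sources used here.

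Ccng1 (ENSMUSG00000020326, chromosome 11, 40748552 to 40755311, minus strand) encodes cyclin G1, a p53-induced protein that works with Mdm2 in feedback on p53. It had 230.1, 239, 251 and 249.8 CPM in DMSO and 338, 349.9, 362 and 374 CPM in 4OHT at day 2. At day 4 it had 125, 114, 135 and 162 CPM in DMSO and 223, 188, 276 and 321 CPM in 4OHT. No libraries overlapped between treatments on either day. The rise was log2 0.57 ± 0.05 (edgeR adjusted p = 4.32e-06) and then 0.92 ± 0.16 (edgeR adjusted p = 0.00300).

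Plk2 (ENSMUSG00000021701, chromosome 13, 110395046 to 110400844, plus strand) encodes a stress-responsive polo-like kinase that acts at centrosomes and in S phase. At day 2 it had 27.5, 29.4, 26.8 and 33.1 CPM in DMSO and 45.1, 43.7, 49.1 and 51.9 CPM in 4OHT. By day 4 DMSO libraries were down to 14.5, 13.7, 12.2 and 14.7 CPM, and 4OHT libraries had 31.9, 25.9, 27.6 and 32.7 CPM. The lowest 4OHT library exceeded the highest DMSO library by over 10 CPM on each day. Plk2 rose by log2 0.71 ± 0.07 at day 2 (edgeR adjusted p = 2.10e-05) and by 1.10 ± 0.09 at day 4 (edgeR adjusted p = 3.60e-05), and by p-value it ranked 74 of 16040 genes at day 4.

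Zmat3 (ENSMUSG00000027663, chromosome 3, 32334792 to 32366014, minus strand) encodes a zinc finger protein that binds RNA and changes splicing downstream of p53. Its levels at day 2 were 53.3, 60.4, 58.3 and 61.0 CPM in DMSO and 87.5, 83.2, 86.8 and 86.5 CPM in 4OHT. At day 4 they were 27.2, 27.2, 26.3 and 32.5 CPM in DMSO and 55.6, 50.1, 53.8 and 62.5 CPM in 4OHT. The groups stood well apart on both days, with a log2 change of 0.57 ± 0.05 at day 2 (edgeR adjusted p = 4.63e-06) and of 0.98 ± 0.08 at day 4 (edgeR adjusted p = 4.31e-05).

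Sesn2 (ENSMUSG00000028893, chromosome 4, 132492032 to 132510501, minus strand) encodes sestrin 2, a leucine sensor that restrains mTORC1 and is also induced by the integrated stress response. DMSO libraries had 39.0, 42.1, 40.7 and 37.1 CPM at day 2 and 4OHT libraries 48.0, 49.99, 48.9 and 48.6 CPM. At day 4 the values were 30.8, 27.6, 30.0 and 30.5 CPM in DMSO and 39.9, 36.2, 40.6 and 42.0 CPM in 4OHT. The treatments did not overlap on either day, and the log2 change was 0.31 ± 0.05 at day 2 (edgeR adjusted p = 0.000392) and 0.42 ± 0.06 at day 4 (edgeR adjusted p = 0.000682).

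Among the genes of apoptosis, Tnfrsf10b and Trp53inp1 rose on both days and Bbc3 at day 4. Tnfrsf10b (ENSMUSG00000022074, chromosome 14, 69767472 to 69784411, plus strand), the mouse death receptor for TRAIL, rose from 33.6 ± 1.22 to 47.9 ± 1.17 CPM and from 24.0 ± 1.65 to 34.4 ± 2.81 CPM, by log2 0.52 ± 0.04 (edgeR adjusted p = 3.84e-06) and 0.52 ± 0.07 (edgeR adjusted p = 0.000804). Trp53inp1 (ENSMUSG00000028211, chromosome 4, 11156431 to 11174379, plus strand), a nuclear protein tied to both apoptosis and autophagy, rose from 39.2 ± 5.01 to 57.6 ± 4.90 CPM and from 26.4 ± 1.82 to 43.4 ± 5.35 CPM. Its log2 change was 0.56 ± 0.09 at day 2 (edgeR adjusted p = 0.000549) and 0.72 ± 0.09 at day 4 (edgeR adjusted p = 0.000333). For both genes every 4OHT library lay above every DMSO library of its day.

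Bbc3 (ENSMUSG00000002083, chromosome 7, 16308393 to 16318205, plus strand) encodes PUMA, a BH3-only protein that drives apoptosis after p53 activation. At day 2 it had 12.7, 11.7, 11.3 and 12.0 CPM in DMSO and 11.1, 10.2, 12.0 and 11.5 CPM in 4OHT, and the groups overlapped. At day 4 it had 9.95, 8.65, 8.77 and 8.51 CPM in DMSO and 12.5, 11.2, 11.5 and 11.8 CPM in 4OHT, with no overlap. The log2 change was -0.08 ± 0.06 at day 2 (edgeR adjusted p = 0.356), which leaves a fold of 0.868 to 1.03 within its approximate 95% interval. At day 4 it was 0.39 ± 0.07 (edgeR adjusted p = 0.00362). Its 4OHT level was nearly the same on both days, 11.2 ± 0.756 and 11.7 ± 0.538 CPM, and the DMSO level fell between them from 11.9 ± 0.581 to 8.97 ± 0.660 CPM.

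The test of the treatment effect between days, fitted over all 16 libraries, passed for 2 of the 10 genes, Bbc3 and Zmat3, where 1.2% of 16597 genes passed in that direction. The effect on Bbc3 was larger at day 4 by log2 0.48 ± 0.10 (edgeR adjusted p = 0.0220), and that on Zmat3 by 0.41 ± 0.10 (edgeR adjusted p = 0.0371). The Bbc3 call held in each leave-one-out fit, whereas that on Zmat3 was lost in 10 of them (edgeR adjusted p up to 0.0910). Plk2 missed the threshold (log2 0.40 ± 0.12, edgeR adjusted p = 0.0904) and passed with the replicate block (edgeR adjusted p = 0.0271) and with DESeq2 (adjusted p = 0.0383). With a block for each replicate number within each day, 5 of the 10 passed, with Cdkn1a (0.30 ± 0.07), Ccng1 (0.34 ± 0.07) and Plk2 (0.39 ± 0.08) added. This block also raised the calls in that direction over all genes, from 199 to 1170 of 16597. For Mdm2 and Tnfrsf10b the effects of the 2 days differed by log2 0.00 ± 0.08. As a ratio of folds this leaves 0.901 to 1.11 and 0.893 to 1.12 within approximate 95% intervals, which are somewhat too narrow.

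Over time the targets went down. In DMSO, 9 of the 10 genes fell from day 2 to day 4, while 24.8% of 16088 genes fell. Plk2 fell by 1.08, Zmat3 by 1.04, Ccng1 by 0.85, Trp53inp1 by 0.57, Mdm2 by 0.55, Tnfrsf10b by 0.48, Sesn2 by 0.41, Bbc3 by 0.40 and Cdkn1a by 0.31 on the log2 scale (edgeR adjusted p from 9.78e-08 to 0.0128). Trp53 measured log2 0.05 ± 0.06. In 4OHT, 7 of the 10 fell, by 0.30 (Sesn2) to 0.69 (Plk2), while 23.5% of 15962 genes fell. Cdkn1a (log2 0.00 ± 0.13), Bbc3 (0.07 ± 0.07) and Trp53 (-0.01 ± 0.07) did not pass there. These comparisons share libraries with the treatment comparisons, so the values stand side by side and are no separate support for them.

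For 8 of the 9 targets, all but Mdm2, the mean in 4OHT at day 4 lay within 1 SD of the mean in DMSO at day 2, taking the larger SD. This comparison was chosen after the values were seen, and it differs in both treatment and time. The share of all genes that lay within 1 SD was not computed, and a wide SD, as for Cdkn1a, makes this easier to meet. Over all genes edgeR called 3279 of 16025 higher and 3101 lower here, so most genes were likewise not called. Plk2 measured 29.5 ± 3.27 against 29.2 ± 2.80 CPM, Sesn2 39.7 ± 2.48 against 39.7 ± 2.17, Tnfrsf10b 34.4 ± 2.81 against 33.6 ± 1.22, Bbc3 11.7 ± 0.538 against 11.9 ± 0.581, Zmat3 55.5 ± 5.19 against 58.3 ± 3.48 and Ccng1 252 ± 58.7 against 242 ± 9.85. Trp53inp1 measured 43.4 ± 5.35 against 39.2 ± 5.01 CPM and Cdkn1a 269.7 ± 60.5 against 228 ± 15.1 CPM. The approximate 95% interval of the fold, somewhat too narrow, was 0.890 to 1.13 for Plk2, 0.911 to 1.08 for Sesn2, 0.928 to 1.11 for Tnfrsf10b and 0.891 to 1.07 for Bbc3. It was 0.857 to 1.04 for Zmat3, 0.858 to 1.24 for Ccng1, 0.953 to 1.26 for Trp53inp1 and 0.979 to 1.41 for Cdkn1a. By edgeR, 2 of the 10 genes were lower in 4OHT at day 4, Mdm2 (log2 -0.22 ± 0.07, edgeR adjusted p = 0.0182) and Trp53 (-0.23 ± 0.08, edgeR adjusted p = 0.0410), while 19.4% of 16025 genes were lower. The Mdm2 call was lost without DMSO day 2 replicate 4 or 4OHT day 4 replicate 1 (edgeR adjusted p = 0.0533 and 0.0565). That on Trp53 was lost in 5 of the 8 leave-one-out fits (edgeR adjusted p up to 0.119), and Cdkn1a passed without 4OHT day 4 replicate 2 (log2 0.34, edgeR adjusted p = 0.0301).

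**Figure D3:**
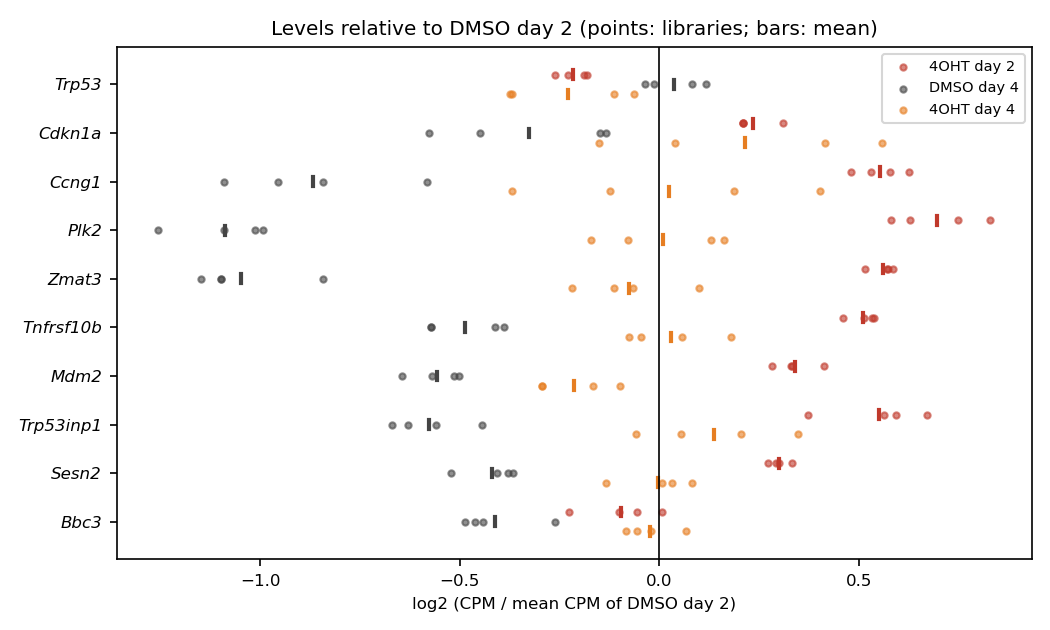
Level of each gene relative to its mean in DMSO day 2 on a log2 scale, with a point per library and a bar at the group mean, for 4OHT day 2, DMSO day 4 and 4OHT day 4. The DMSO day 4 libraries lie left of 0 for every gene except Trp53, and the 4OHT day 4 bars lie near 0 for Ccng1, Plk2, Tnfrsf10b, Sesn2 and Bbc3.

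Levels between genes were compared per kilobase of annotated exon. In DMSO at day 2 the order was Ccng1 (69.0 ± 2.80 CPM per kb), Cdkn1a (64.1 ± 4.24), Trp53 (40.5 ± 2.51), Mdm2 (13.8 ± 0.884), Sesn2 (11.4 ± 0.624), Plk2 (6.50 ± 0.624), Tnfrsf10b (6.16 ± 0.223), Trp53inp1 (6.06 ± 0.774), Bbc3 (5.61 ± 0.273) and Zmat3 (5.10 ± 0.304). Neighbours from Plk2 to Zmat3 overlapped between libraries, as did Ccng1 and Cdkn1a, while Trp53, Mdm2 and Sesn2 each stood apart from their neighbours. In 4OHT at day 4, Cdkn1a (75.9 ± 17.0) and Ccng1 (71.7 ± 16.7) were again the 2 highest and overlapped, and Trp53 had 34.7 ± 3.95 CPM per kb.

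Several of the 10 genes varied together between replicates of a group. After subtracting each group's mean, Cdkn1a and Ccng1 had a correlation of 0.885 over the 16 libraries, Mdm2 and Trp53inp1 0.810, Cdkn1a and Sesn2 0.765, and Ccng1 and Zmat3 0.755. Other pairs shared little, such as Cdkn1a and Plk2 (0.041) and Plk2 and Tnfrsf10b (-0.006). Trp53 ran opposite to most targets: its correlation was -0.771 with Cdkn1a, -0.750 with Ccng1, -0.644 with Tnfrsf10b and -0.637 with Trp53inp1. It was -0.629 with Mdm2, -0.394 with Sesn2, -0.393 with Zmat3 and 0.109 with Plk2. The correlations of Bbc3 with the targets ran from -0.326 (Mdm2) to 0.469 (Plk2), and it had 0.506 with Trp53. These are descriptions with no test, since all genes of a library share its preparation and depth. Over the 8 day 4 libraries alone Cdkn1a had 0.960 with Ccng1 and -0.902 with Trp53. Same-numbered libraries of the 2 treatments shared their deviations at day 4 (correlations of 0.632 to 0.81 across genes). The libraries behind these values are thus not independent of each other at day 4. There, replicates 3 and 4 of both treatments had more Cdkn1a and less Trp53 than replicates 1 and 2. In DMSO day 4, replicates 3 and 4 were also the shallower libraries (64.4 M and 64.8 M against 90.8 M and 91.6 M counts); in 4OHT day 4 totals were 79.7 M, 79.4 M, 73.1 M and 82.8 M for replicates 1 to 4. The part of depth in this pattern was not tested.

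**Figure D4:**
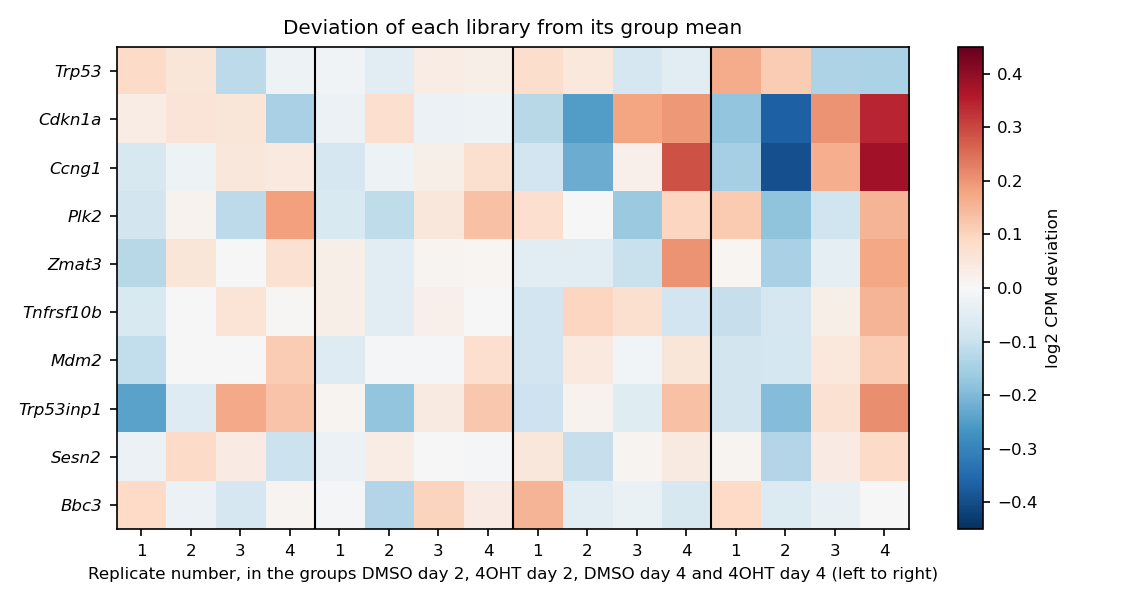
Deviation of log2 CPM from the group mean for each gene (rows) and library (columns, replicates 1 to 4 of DMSO day 2, 4OHT day 2, DMSO day 4 and 4OHT day 4); red is above and blue below the mean. At day 4 the colours of Cdkn1a and Ccng1 change together between replicates, in both treatments, and those of Trp53 run opposite.

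The wider p53 programme was followed in 43 other known targets, 41 of them tested on each day. Of these, 22 rose and 6 fell at day 2 (median log2 0.18) and 18 rose at day 4 (median 0.22), beside the shares of all genes given above. At day 4 edgeR called 0 lower, with 1 lower at an unadjusted p below 0.05, 1 lower by DESeq2, and 22 higher and 4 lower with the replicate block, under which 22.8% of all genes rose and 22.2% fell. Phlda3, an inhibitor of Akt signalling, had 19.2 ± 1.52 CPM in DMSO and 34.8 ± 3.48 in 4OHT libraries of day 2 (log2 0.87 ± 0.08), and 9.57 ± 1.39 and 21.8 ± 4.91 CPM in those of day 4 (log2 1.20 ± 0.16). Polk, a translesion DNA polymerase, rose by log2 0.53 ± 0.06 and 0.58 ± 0.08. Lif, a cytokine gene, rose by 0.50 ± 0.06 and 0.53 ± 0.11, and Sulf2, a heparan sulfatase, by 0.40 ± 0.05 and 0.57 ± 0.08. Cgref1, Gadd45a, a growth arrest gene, and Ephx1, an epoxide hydrolase, fell at day 2 by 0.55, 0.32 and 0.36 on the log2 scale. Ephx1 measured log2 0.09 ± 0.06 at day 4 and was the 1 gene of this list whose effect differed between days (0.46 ± 0.10, edgeR adjusted p = 0.0263). That call was lost in 9 of 16 leave-one-out fits (edgeR adjusted p up to 0.0778). With the block within each day 8 genes of this list were higher, beside 1170 of 16597 genes. Rps27l measured log2 -0.06 ± 0.06 at day 2.

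**Figure D5:**
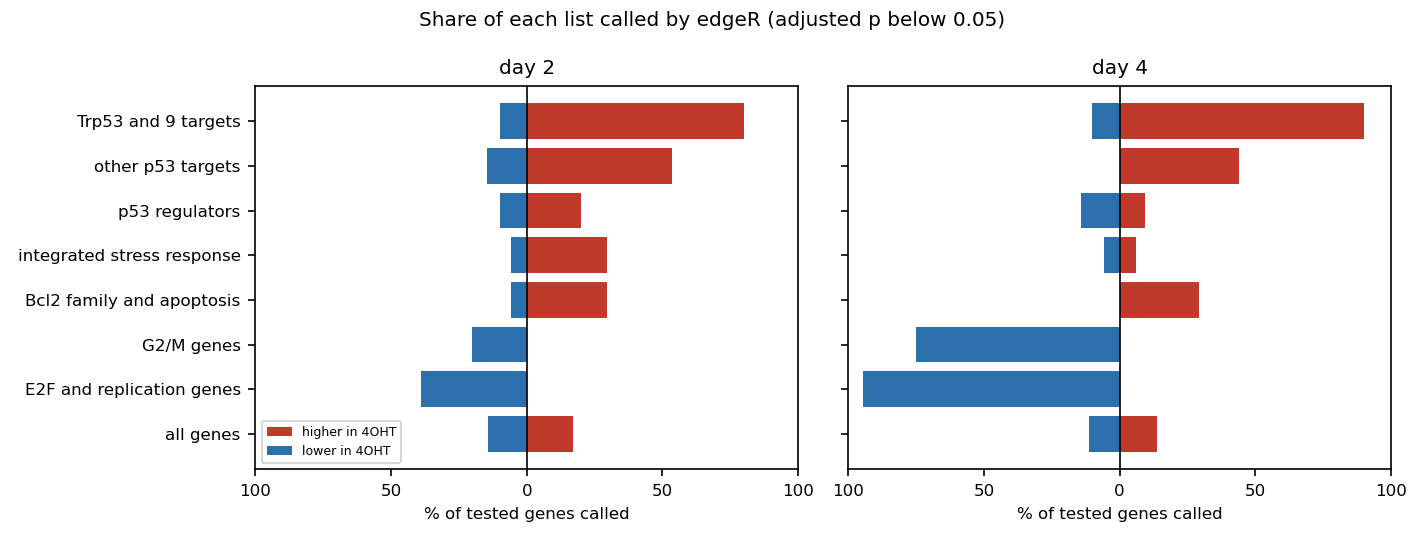
Percent of tested genes of each list called higher (right, red) or lower (left, blue) in 4OHT by edgeR at day 2 and day 4, with all genes at the bottom. The replication and G2/M lists extend to the left, most at day 4. Trp53 with its targets and the other p53 targets extend mostly to the right. The p53 regulators extend both ways, at day 4 by 14.3% to the left and 9.52% to the right.

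Of 22 regulators of p53, 20 were tested at day 2 and 21 at day 4; 4 rose and 2 fell at day 2, and 2 rose and 3 fell at day 4. These shares, 20% and 10% at day 2 and 9.52% and 14.3% at day 4, were near those of all genes (16.9% and 14.3%, then 13.7% and 11.1%). With the replicate block 3 rose and 9 fell at day 4, or 14.3% and 42.9%, beside 22.8% and 22.2% of all genes. Cdkn2a, whose locus encodes the Mdm2 inhibitor ARF and the kinase inhibitor p16, had 5.31 ± 0.662 CPM in DMSO and 10.2 ± 0.457 in 4OHT libraries of day 2 (log2 0.96 ± 0.09, edgeR adjusted p = 7.63e-06). In day 4 libraries it had 3.54 ± 0.426 and 11.6 ± 2.91 CPM (log2 1.72 ± 0.17, edgeR adjusted p = 0.000108); counts per gene do not separate its 2 products. Ppp1r13b, an ASPP protein that directs p53 to apoptotic genes, rose by log2 0.22 ± 0.04 and 0.25 ± 0.04, and Ppp1r13l, its inhibitory relative, by 0.57 ± 0.05 at day 2. The checkpoint kinase genes Chek1 and Chek2 fell by 0.25 and 0.27 at day 2 and by 0.45 and 0.37 at day 4, when Atr also fell by 0.28.

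Of the proliferation genes, most of both lists fell at day 4, when 11.1% of all genes did, and fewer at day 2, when 14.3% did. Of 18 E2F and replication genes, 7 fell at day 2 (median log2 -0.13) and 17 at day 4 (median -0.35); Tyms, thymidylate synthase, fell by 0.21 and 0.33, Rfc3, a clamp loader subunit, by 0.40 and 0.38, and Rrm2, a ribonucleotide reductase subunit, by 0.36 at day 4. Of 20 G2/M genes, 4 fell at day 2 (median -0.08) and 15 at day 4 (median -0.23); Cdk1, the mitotic kinase, fell by 0.18 and 0.28 and Birc5, survivin, by 0.22 and 0.24. In both lists edgeR and DESeq2 called 0 genes higher on either day; at an unadjusted p below 0.05, 1 G2/M gene was higher at day 2 and 0 in the other 3 cases. The difference in effect between days was called by edgeR for 0 genes of either list, and as lower for 79 of 16597 genes. DESeq2 called 0 G2/M genes and 1 replication gene lower, beside 247 of all genes. The block within each day called 6 and 8 lower, beside 680 of all genes. At an unadjusted p below 0.05, 6 G2/M and 8 replication genes were lower, and the share of all genes at that threshold was not computed. Mki67 measured log2 0.08 ± 0.08 at day 2 and -0.24 ± 0.18 at day 4, where it passed as lower with the replicate block (edgeR adjusted p = 0.000738).

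Of 17 tested genes of the Bcl2 family and apoptosis machinery, 5 rose and 1 fell at day 2. At day 4 edgeR called 5 higher and 0 lower, with 8 and 0 at an unadjusted p below 0.05, 6 and 0 by DESeq2, and 10 and 1 with the replicate block. The shares that rose were 29.4% on each day, beside 16.9% and 13.7% of all genes, and with the block 58.8% at day 4, beside 22.8%. The rises that had the smallest p were in genes that oppose apoptosis: Bcl2l1, which encodes BCL-XL, by log2 0.35 ± 0.05 and 0.35 ± 0.06, Mcl1 by 0.23 ± 0.04 and 0.21 ± 0.04, Bcl2 by 0.28 ± 0.07 at day 2 and Cflar, a caspase 8 inhibitor, by 0.25 ± 0.04 at day 4. The treatment effect differed between days for Birc3, an inhibitor of apoptosis gene (log2 0.27 ± 0.06, edgeR adjusted p = 0.0330), a call lost in 11 of 16 leave-one-out fits (edgeR adjusted p up to 0.0879).

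Of 17 genes of the integrated stress response, which shares Sesn2 as an output, 5 rose and 1 fell at day 2, and 1 rose and 1 fell at day 4. The shares were 29.4% and 5.88% at day 2, beside 16.9% and 14.3% of all genes, and 5.88% each at day 4, beside 13.7% and 11.1%. With the replicate block 5 rose and 3 fell at day 4, or 29.4% and 17.6%, beside 22.8% and 22.2%. Nupr1, a stress-induced chromatin protein, rose by log2 1.15 ± 0.07 and 1.04 ± 0.22, Asns, asparagine synthetase, by 0.30 ± 0.05 and Vldlr by 0.78 ± 0.11 at day 2. Trib3 fell by 0.34 at day 2, a call lost when all 16 libraries were fitted together, and Shmt2 by 0.23 at day 4. Atf4, the central factor of this response, measured log2 -0.05 ± 0.04 and -0.09 ± 0.08.

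The 5 genes outside the set whose profile was most like that of the 10 were Slc9a4, Mapk11, Syt8, Ly6d and Slc39a4. Likeness was Pearson's correlation over 16 libraries, after centring on each day, with the mean standardised profile of the 10 genes. It was 0.995, 0.994, 0.992, 0.991 and 0.991, the highest of 9335 candidates. This centring leaves the difference between treatments in, so a gene with a clear rise in 4OHT on both days tends to score high. Slc9a4, a sodium/proton exchanger, had 9.14 ± 1.60 CPM in DMSO and 24.0 ± 3.21 in 4OHT libraries of day 2, then 2.33 ± 0.306 and 13.8 ± 5.19 CPM. Mapk11, a p38 kinase gene, had 17.9 ± 1.30 and 37.1 ± 2.92 CPM, then 4.16 ± 0.437 and 15.2 ± 5.26 CPM. Among the set itself, which contributed to the mean, Zmat3 (0.988) and Plk2 (0.982) were closest, Bbc3 had 0.654 and Trp53 -0.837. The values come from the same libraries and describe likeness only.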

How the data were processed

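The submitters' processing notes name STAR 2.4.0f1, bcl2fastq 1.8.4 and GRCm38. The counting tool, with its annotation and strand setting, is not given in the sources used here. The authors deposited 1 table per day that gives, for 8 libraries, unnormalized counts of reads in each gene, listing genes with at least 10 reads summed over these. Only the count columns were used; 16 deposited columns of normalized values were not. Columns were matched to samples by title. Replicates were grouped by the treatment and day in the titles. Coordinates and exon lengths are from GENCODE M21 (GRCm38, 1-based).

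After filterByExpr and TMM scaling, the quasi-likelihood test of edgeR 4.0.16 (robust fit; R 4.3.3, with limma 3.58.1) was run on the counts, and a gene was called at a Benjamini-Hochberg adjusted p below 0.05 over all genes tested. Treatment comparisons used the 8 libraries of their day, time comparisons the 8 libraries of their treatment, and the interaction all 16. A standard error was taken as the size of the log2 change over the root of its F statistic. The 95% intervals used the normal multiple of this error, not the larger one of a test on few libraries. They are therefore approximate and too narrow. For Ccng1 in the interaction the interval of the fold was 1.002 to 1.633, although edgeR's quasi-likelihood test gave an unadjusted p of 0.0658. CPM values use TMM over 16 libraries and genes in both tables. The day 2 and day 4 treatment fits were run on simulated counts of independent libraries. The time and interaction fits were not, and the simulation held no pairing of libraries. Counting precision rests on 63.8 M to 93.3 M counts per library, without molecular identifiers.

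The members and lists were chosen with earlier results of these data known. The lists are 43 other p53 targets, 22 p53 regulators, 17 integrated stress genes, 20 G2/M genes, 18 E2F and replication genes, 18 genes of the Bcl2 family and apoptosis, and the cell markers. Rprm and Hrk were in neither table, and Cop1 was found under an older symbol. All 10 members were named. From each list up to 3 genes per direction and day with the smallest p, up to 2 uncalled genes with the highest CPM, and genes whose effect differed between days could be named; some list genes are not reported here by name.

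At day 4, deviations from group means of same-numbered DMSO and 4OHT libraries correlated at 0.632 to 0.810 over 9687 genes above a mean log2 CPM of 3, and each library matched its own number best. The numbers thus pair these libraries; this was read from the data and no label ties them. At day 2 the range was -0.110 to 0.475. Alternatives were DESeq2 1.42.0 (Wald test), edgeR with the size factors of DESeq2, all genes kept whatever their counts, a replicate block, one model for the 16 libraries, and leaving out each library. The comparison of 4OHT day 4 with DMSO day 2 and the block within each day were added after seeing the data.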

Additional observations from a re-analysis of the deposited data

Results flagged for a closer look

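In 3 of the 40 groups of 4 libraries examined (10 genes in 4 groups), 1 library lay far from the others by Dixon's test at its 95% critical value; chance gives about 1 in 20. Cdkn1a was lowest in DMSO day 2 replicate 4, at 205 CPM against 233 to 237 in the others, and without this library its day 2 change was log2 0.19 ± 0.05 (edgeR adjusted p = 0.00773). Cdkn1a was highest in 4OHT day 2 replicate 2, at 282 CPM against 263 to 264. Zmat3 was highest in DMSO day 4 replicate 4, at 32.5 CPM against 26.3 to 27.2, and without this library its day 4 change was log2 1.04 ± 0.08.

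The effect of 4OHT differed between days, by the interaction test, for Zmat3 (larger at day 4 by log2 0.41 ± 0.10) and for Bbc3 (larger by 0.48 ± 0.10).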

How the results depend on the processing

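Of the 10 genes' calls under each alternative, 129 of 130 kept side and direction at day 2, 121 of 130 at day 4, 129 of 130 for DMSO over time 118 of 130 for 4OHT over time, 175 of 210 for the interaction (19 changed sign, 10 lost and 6 gained the call) and 112 of 130 for 4OHT day 4 against DMSO day 2 (10, 7 and 1). Leaving out each library gave 8 higher and 1 lower member at day 2, 8 to 9 higher and 0 to 1 lower at day 4, and 1 to 3 higher for the interaction. For 4OHT day 4 against DMSO day 2 it gave 0 to 1 higher and 0 to 2 lower. For the other p53 targets it gave 0 to 1 lower at day 4 and 0 to 4 higher for the interaction. Other p53 targets lower at day 4, 0 in the reported fit, were 1 with DESeq2, 1 with its size factors, 1 with no filter, 2 in the fit over all 16 libraries and 4 with the replicate block. Their interaction count, 1 as reported, was 3 with DESeq2, 3 with the replicate block, and 8 higher and 1 lower with the block within each day, where 5 members were higher. Over all genes, the replicate block moved the day 4 calls from 2191 higher and 1776 lower to 3651 and 3565. The interaction calls, 199 and 79 as reported, were 600 and 247 with DESeq2, 625 and 264 with the replicate block, 1170 and 680 with the block within each day, and 66 to 502 and 28 to 225 on leaving out a library. At day 2, where same-numbered libraries were not paired by the data, the block gave 2680 and 2236 calls (2681 and 2269 without it). The replicate block changed no treatment call of the 10 genes, and in the interaction it added Plk2 (log2 0.39, edgeR adjusted p = 0.0271).

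Values near 0 changed sign. Cdkn1a over time in 4OHT was -0.0043 with DESeq2 and with its size factors, -0.021 with the replicate block, -0.0022 in the fit over all 16 libraries and -0.11 to 0.11 on leaving out a library. Trp53 over time was -0.012 to 0.071 in DMSO and -0.074 to 0.042 in 4OHT on leaving out a library. In the interaction, Tnfrsf10b was -0.0011 with DESeq2, -0.0012 with its size factors, -0.0014 with the replicate block, -0.0015 with the block within each day and -0.050 to 0.039 without a library; Mdm2 was -0.0004, -0.0006 and -0.035 to 0.039 in the last 3. For 4OHT day 4 against DMSO day 2, leaving out a library gave -0.093 to 0.16 for Ccng1, -0.045 to 0.067 for Plk2, -0.031 to 0.055 for Tnfrsf10b, -0.047 to 0.026 for Sesn2 and -0.065 to 0.0047 for Bbc3. Mki67 at day 2 was -0.0005 to 0.11. The cause of these changes was not tested.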
